A study of Mustela putorius furo with 2 samples.

Results

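The ERBB receptor genes EGFR, ERBB2, ERBB3 and ERBB4 and the neuregulin genes NRG1, NRG2 and NRG3 were followed across the cell classes of the newborn ferret cortex. They are 7 of the 21317 genes with at least 1 UMI (unique molecular identifier, a tag that counts an RNA molecule once), and they were taken by name as the receptors of the family and its neuregulin ligands. All cells were taken from dorsal cortices of ferret pups (wild type, postnatal day 3), dissociated with papain and captured in droplets on the 10x Chromium platform, with no treatment and no second genotype. The 2 libraries are replicates of that single group and are called library A and library B here, since the labels do not tie the barcode suffixes to replicate numbers. The comparisons are therefore between cell classes within the same tissue, and nothing in the labels says that the libraries came from separate animals. The p-values measure only how class differences vary between these 2 libraries once their common difference is removed. That spread may be technical.

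Receptors of this family are tyrosine kinases that pair on the cell membrane once a ligand is bound. EGFR binds EGF, TGFA and related growth factors, ERBB2 has no known ligand of its own and acts as a partner, ERBB3 binds neuregulins but has little kinase activity, and ERBB4 binds neuregulins and is an active kinase. Neuregulins are made as membrane-bound precursors that proteases release. In the developing cortex the family is best known for EGFR in late and glia-producing progenitors, for ERBB4 in migrating and maturing interneurons, for ERBB3 in the oligodendrocyte and Schwann cell lineages, and for NRG1 and NRG3 in interneuron migration and synapse formation.

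The matrix held 14787 cells and 60743615 UMIs, with a median of 3602.5 UMIs per cell in library A and 3068 in library B. Cells were gated into classes by marker genes, none of which was a member, and 15 classes had at least 20 cells in each library. Those classes held 8122 cells, while 5190 cells met no gate and 1413 met several and were left out. The 21 barcodes shared by the libraries were kept as separate cells. Some classes did not follow their working names: the cells gated by MEIS2 and DLX or GAD genes were led by DLX1, GSX2 and DLX2 and are called MEIS2 and DLX cells. Cells gated by 2 of TBR1, FEZF2, TLE4 and FOXP2 also carried the glial transcripts SLC1A3 (199 and 296 CPM, counts per 1000000 UMIs of the class, in libraries A and B) and OLIG1 (127 and 68.0 CPM), and they are named by their gate genes. Droplet data also carry free RNA, so microglia-like cells, immune cells outside the neural lineage, served as the reference for background.

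**Figure D1:**
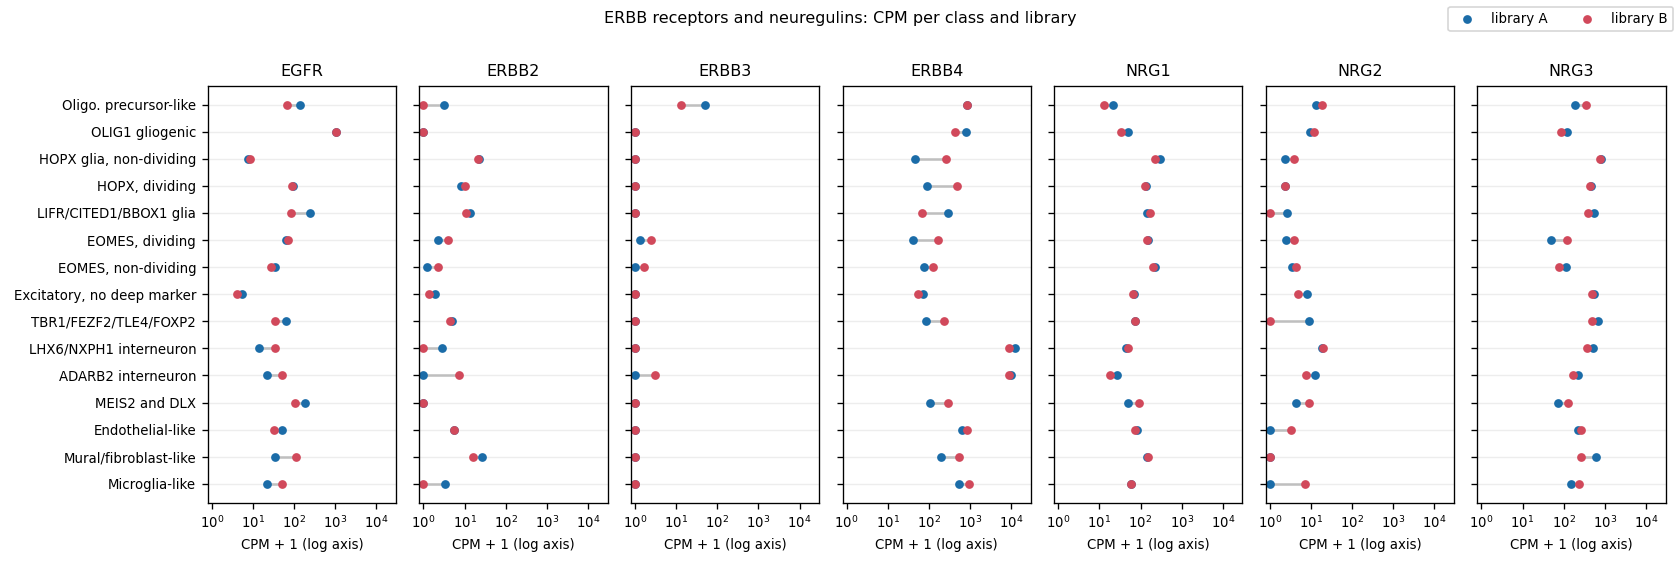
CPM of the 7 members (columns, CPM + 1 on a log axis) in 15 marker-gated classes (rows), with 1 point per library (blue A, red B) and a grey line between them. EGFR peaks in OLIG1 gliogenic cells at 1025 and 1021 CPM, ERBB4 in the LHX6 or NXPH1 and ADARB2 interneurons at 8802 to 12414 CPM, and NRG1 and NRG3 in non-dividing HOPX glia.

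EGFR was highest in OLIG1 gliogenic progenitor-like cells, which were gated by OLIG1 with at least 1 further progenitor marker (OLIG2 and GSX2 among them) and without PDGFRA, SOX10, GPR17 and BCAS1. Its level there was 1025 CPM in library A (610 UMIs in 121 cells) and 1021 CPM in library B (281 UMIs in 66 cells). The 2 libraries were almost equal, and both lay above every other class. The next class by mean level, the glia gated by LIFR, CITED1 and BBOX1, had 242 and 81.5 CPM, so the mean of the gliogenic class was 6.32 times that of the second. EGFR was read in 78.5% and 84.8% of gliogenic cells, and in 66.1% and 59.1% once each cell was thinned to 1500 UMIs. In microglia-like cells (median 2266 and 2020 UMIs per cell, against 4378 and 3891.5 in the gliogenic class) the thinned shares were 4.07% and 9.40%.

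At the other end of the EGFR order stood non-dividing HOPX glia, radial-glia- and astrocyte-like cells gated by HOPX with CLU or AQP4. EGFR had 10 UMIs in 291 of these cells in library A and 5 UMIs in 146 cells in library B, or 6.69 and 7.40 CPM. Excitatory neuron-like cells without deep-layer markers were lower still, at 4.34 and 3.08 CPM. In library A, 19 of their 28 EGFR UMIs came from 1 cell that also carried RNA of GAD1, GAD2, DLX5 or DLX6, and without the cells carrying those genes the levels were 1.46 and 3.20 CPM. Only 3 of the 14 neighbouring pairs in the order of classes were separate in both libraries: the gliogenic class above the LIFR class, LHX6 or NXPH1 interneurons above HOPX glia, and HOPX glia above these excitatory neurons. The ranks between them are not resolved.

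UMI sums per class and library were compared with the quasi-likelihood test of edgeR, with Benjamini-Hochberg adjustment over all 11625 genes tested, and adjusted p-values quoted as edgeR's come from that test. EGFR was higher in gliogenic progenitors than in non-dividing HOPX glia by 7.14 on the log2 scale (SE 0.31, edgeR adjusted p = 1.11e-22). Against oligodendrocyte precursor-like cells, which had 139 and 64.6 CPM, it was higher by 3.20 (SE 0.25, edgeR adjusted p = 4.76e-14). The difference from non-dividing EOMES progenitors, the intermediate progenitors of excitatory neurons (33.5 and 26.4 CPM), was 4.96 (SE 0.21, edgeR adjusted p = 2.37e-23). Each difference had the same sign in both libraries. The gliogenic gate was chosen with the link between OLIG1 and EGFR in these data already known, so these tests are no independent evidence of that link.

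Within the gliogenic class EGFR had no common direction with division markers. Cells with at least 2 of 6 division markers (MKI67, TOP2A, CENPF, UBE2C, NUSAP1 and TPX2) had 1159 CPM in library A and 903 CPM in library B, and cells with none had 963 and 1011 CPM. The ranges overlap. Gliogenic cells with DLX1 or DLX2 had 1092 and 669 CPM, those without had 992 and 1213 CPM, and these ranges overlapped as well. In contrast, the MEIS2 and DLX cells held EGFR mainly in their dividing cells, with 252 and 210 CPM (94 and 25 UMIs) in cells with at least 2 division markers. Their cells with no division marker had 2 UMIs in 40 cells in library A and 0 UMIs in 22 cells in library B. The libraries did not overlap between those 2 sets of cells.

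**Figure D2:**
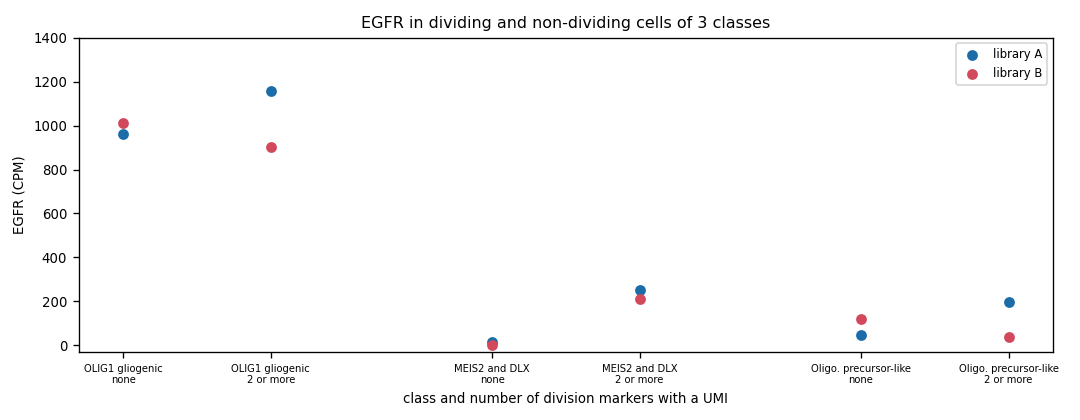
EGFR level (CPM, linear axis) in cells with no division marker and in cells with 2 or more, for 3 classes, with 1 point per library (blue A, red B). Gliogenic cells sit between 903 and 1159 CPM in both sets, MEIS2 and DLX cells reach 252 and 210 CPM in the dividing set against 2 and 0 UMIs in the other, and oligodendrocyte precursor-like cells show no common direction.

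Dividing progenitors of other classes also carried some EGFR. Dividing HOPX radial glia-like cells, gated by HOPX with at least 2 division markers and without EOMES, had 90.8 and 88.2 CPM. That was 3.60 more on the log2 scale than non-dividing HOPX glia (SE 0.43, edgeR adjusted p = 5.75e-09). Only the non-dividing gate asked CLU or AQP4, so division and these markers cannot be told apart in any contrast of the 2 classes. Dividing EOMES progenitors had 63.0 and 70.5 CPM. In thinned cells the EGFR share was 12.2% and 3.85% in dividing HOPX cells and 7.92% and 8.17% in dividing EOMES cells, which is not above the microglia-like share in both libraries. Microglia-like cells are no even floor for EGFR, at 21.2 and 50.9 CPM against 6.69 and 7.40 in non-dividing HOPX glia. A share within theirs therefore does not show background, and whether the EGFR of these dividing classes is free RNA was not tested. The gliogenic and the LIFR classes were the 2 of 14 classes whose thinned EGFR share exceeded both microglia-like values. In the LIFR class the 17 cells of library A with OLIG1 had 564 CPM of EGFR, against 185 CPM in the 84 cells without it.

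Low EGFR levels in 3 further comparisons passed the test but rest on few molecules. EGFR was higher in non-dividing EOMES progenitors than in the excitatory neurons by 2.89 (SE 0.35, edgeR adjusted p = 6.34e-09), with thinned shares of 4.0% and 2.39% in the progenitors, at or below those of microglia-like cells. The cells gated by TBR1, FEZF2, TLE4 and FOXP2 had 64.1 and 34.0 CPM, 3.68 above the excitatory neurons (SE 0.43, edgeR adjusted p = 1.50e-08). That call was lost when these cells also had to carry NEUROD2 or NEUROD6 (log2 difference 2.29, edgeR adjusted p = 0.103), and these are the cells in which glial transcripts were found, whose part in the result was not tested. The LHX6 or NXPH1 interneurons had 14 and 9 EGFR UMIs (13.0 and 34.1 CPM), 1.98 above the excitatory neurons (SE 0.61, edgeR adjusted p = 0.0141). Without excitatory and other cells carrying GAD1, GAD2, DLX5 or DLX6 these 3 differences were 3.81, 4.44 and 2.93 and were still called. The call for oligodendrocyte precursor-like cells over HOPX glia (3.95, SE 0.50, edgeR adjusted p = 1.52e-08) was lost with stricter gates (1.58, edgeR adjusted p = 0.450). Those asked 1 more marker of both classes.

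ERBB2, the partner receptor without a ligand of its own, gave 256 UMIs in the whole data set. It was most often read in non-dividing HOPX glia, with 32 UMIs (21.4 CPM) in library A and 14 UMIs (20.7 CPM) in library B. LIFR glia followed with 12.5 and 9.77 CPM, and dividing HOPX cells with 7.40 and 9.35 CPM. Mural and fibroblast-like cells had 24.8 and 15.5 CPM, but from 3 and 1 UMIs. No ERBB2 UMI was found in the 187 gliogenic progenitors or in the MEIS2 and DLX cells. With a floor of 3 counts over both libraries, the pooled level of HOPX glia (21.2 CPM) was at least 6.15-fold higher than that of gliogenic progenitors. Counting error of the HOPX glia themselves is not in that bound. The difference was called (edgeR adjusted p = 0.000365).

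Oligodendrocyte precursor-like cells held a single ERBB2 UMI, and the difference from HOPX glia was also called (edgeR adjusted p = 0.00643). Dividing HOPX cells were lower than non-dividing ones by a log2 difference of -1.47 (SE 0.50, edgeR adjusted p = 0.0307). This last call was lost under 3 alternatives: cells of several gates placed in the class with most markers (adjusted p = 0.0648), no filter on low counts (0.0761) and DESeq2 (0.0875). EGFR and ERBB2 thus stood at opposite ends of the comparison of gliogenic progenitors with HOPX glia.

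ERBB3, the neuregulin receptor of the oligodendrocyte lineage, was scarce, with 45 UMIs in all. Oligodendrocyte precursor-like cells held 25 of them, 23 in library A (48.4 CPM, 16.3% of 86 cells) and 2 in library B (11.7 CPM, 6.67% of 30 cells). ERBB3 stayed under the filter on low counts and was tested in none of the 10 comparisons. No ERBB3 UMI was read in gliogenic progenitors, HOPX glia or the excitatory neurons, and the pooled level in oligodendrocyte precursor-like cells was at least 11.2-fold, 28.0-fold and 121-fold higher than theirs, against the floor of 3 counts. These bounds cover only the counting error of the classes without a UMI, and the 25 UMIs are taken as exact. Of those 25 UMIs, 23 come from library A. In that library, 18 of the 23 UMIs came from the 55 precursor-like cells with no division marker and 0 from the 12 with at least 2.

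ERBB4 was the receptor of the interneurons. LHX6 or NXPH1 interneuron-like cells, the type that arises in the medial ganglionic eminence, had 12414 CPM in library A (13360 UMIs) and 8908 CPM in library B (2349 UMIs). ADARB2 interneuron-like cells, the caudal eminence type, had 9899 and 8802 CPM. The ranges of these 2 classes overlapped, and both lay far above the third class in the order. ERBB4 was read in 98.2% and 98.7% of the former and in 92.4% and 95.0% of the latter, and together the 2 classes held 64.5% of all 53919 ERBB4 UMIs.

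The difference between the LHX6 or NXPH1 interneurons and the excitatory neurons was 7.27 on the log2 scale (SE 0.44, edgeR adjusted p = 2.27e-18). The difference between the 2 interneuron classes was 0.20 (SE 0.33, edgeR adjusted p = 0.857) and did not pass the test. Among LHX6 or NXPH1 cells, those with the peptide gene SST had 10063 and 7650 CPM of ERBB4, and those without had 13350 and 9264 CPM. Cells without SST were higher in each library, but the ranges over the 2 libraries overlapped.

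MEIS2 and DLX cells, although gated by the same DLX and GAD genes, had little ERBB4. Their level was 105 CPM (64 UMIs) in library A and 283 CPM (71 UMIs) in library B, and the log2 difference from LHX6 or NXPH1 interneurons was -6.06 (SE 0.48, edgeR adjusted p = 5.48e-14). For each UMI of GAD1, GAD2, DLX5 and DLX6 summed, these cells had 0.195 and 0.526 UMIs of ERBB4. The LHX6 or NXPH1 and the ADARB2 interneurons together had 9.47 and 7.85. Of the MEIS2 and DLX cells, 63 of 131 in library A and 23 of 60 in library B carried at least 2 division markers. Contrasts of this class with interneurons are therefore not between non-dividing neurons alone. These dividing cells held 32 and 1 ERBB4 UMIs, and those with no division marker 12 and 43. In library B that was 8.40 against 588 CPM, while the sets were close in library A. Both sets lay far under the interneuron classes in each library.

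Outside the interneurons ERBB4 was read at intermediate levels in several unrelated classes. Oligodendrocyte precursor-like cells had 821 and 828 CPM, endothelial-like cells 646 and 822, microglia-like cells 535 and 922, and gliogenic progenitors 810 and 425. After thinning, ERBB4 was read in 51.2% and 59.8% of microglia-like cells and in 50.0% and 46.7% of oligodendrocyte precursor-like cells. The precursor share was under that of microglia-like cells in both libraries, so it was not told apart from the background reference. That reference is no even floor for ERBB4, since the excitatory neurons had 72.4 and 52.0 CPM. Whether the precursor-like signal is expression in these cells was not tested. Of the 14 other classes, the 2 interneuron classes alone exceeded both microglia-like shares.

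**Figure D3:**
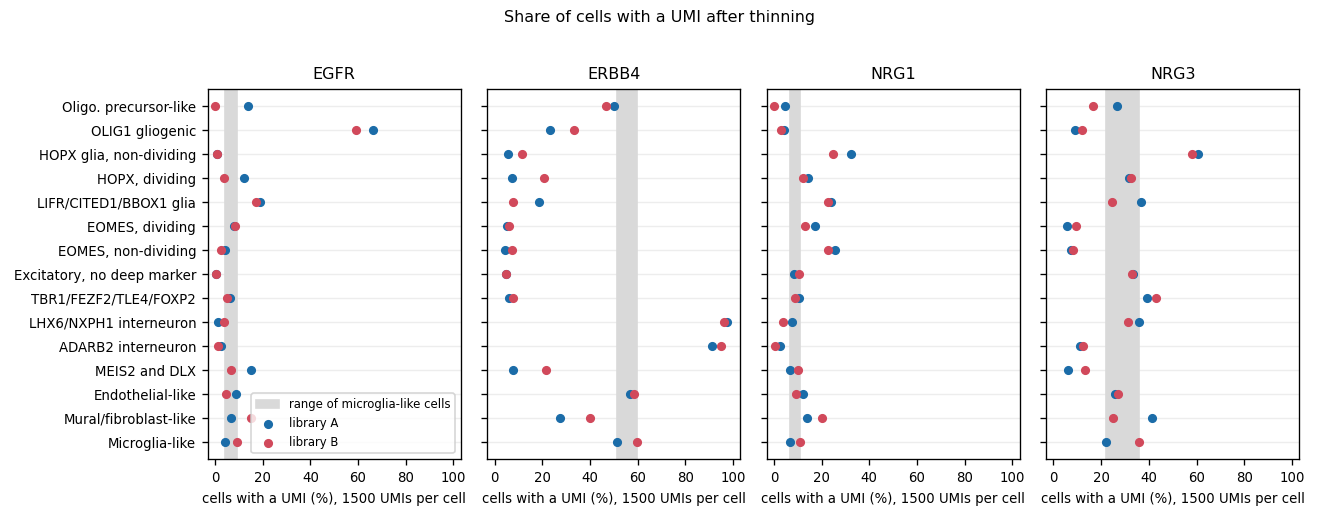
Share of cells with at least 1 UMI of EGFR, ERBB4, NRG1 and NRG3 (percent, horizontal axis) after each cell was thinned to 1500 UMIs, by class (rows) and library (blue A, red B); the grey band spans the 2 microglia-like values. The gliogenic class lies outside the band for EGFR (66.1% and 59.1%), the 2 interneuron classes for ERBB4, and non-dividing HOPX glia for NRG3 (60.5% and 58.2%).

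ERBB4 outside the interneurons was set beside RNA of the inhibitory genes GAD1, GAD2, DLX5 and DLX6. In the 24 class and library sums outside the 3 inhibitory classes, the number of ERBB4 UMIs per UMI of those genes ran from 3.14 to 21.0 with a median of 11.95, and in microglia-like cells it was 14.2 and 17.1. The 5% of cells richest in ERBB4 held 78.0% of its UMIs in the gliogenic class, 80.4% in non-dividing HOPX glia and 81.1% in the excitatory neurons, against 10.3% in LHX6 or NXPH1 interneurons. In microglia-like cells the richest 5% held 21.7%, and in oligodendrocyte precursor-like cells 44.6%. Gliogenic cells without any UMI of those 4 inhibitory genes had 88.4 and 250 CPM of ERBB4, and the 15 and 5 cells with one had 5836 and 1783 CPM. In microglia-like and endothelial-like cells, those without such a UMI kept most of the ERBB4. Microglia-like cells without one held 172 of 227 and 238 of 308 ERBB4 UMIs, at 442 and 786 CPM, against 1564 and 2224 CPM in the cells with one. Endothelial-like cells without one had 614 and 776 CPM, and oligodendrocyte precursor-like cells 532 and 426 CPM. Those precursor-like cells held 207 of 390 ERBB4 UMIs of their class in library A but 53 of 141 in library B. In non-dividing HOPX glia the cells without one held 60 of 68 and 65 of 177. In the excitatory neurons the cells without one had 48.5 and 51.5 CPM and those with one 626 and 63.8 CPM, so the gap was not alike in the 2 libraries. How much of the ERBB4 signal outside interneurons is free RNA or mixed cells was not tested.

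**Figure D4:**
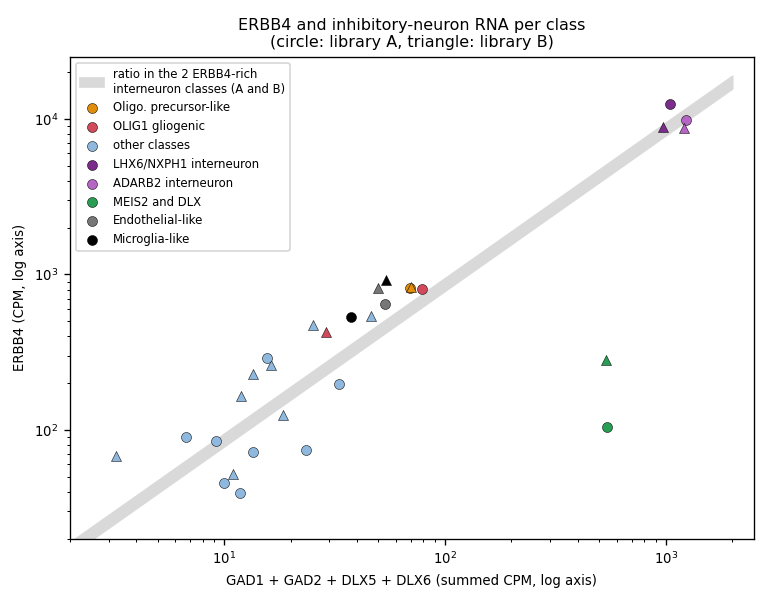
ERBB4 (CPM, log axis) against the summed CPM of GAD1, GAD2, DLX5 and DLX6 (log axis) for each class, with circles for library A and triangles for library B; the grey band is the ratio of the pooled LHX6 or NXPH1 and ADARB2 interneurons (9.47 and 7.85). Endothelial-like, microglia-like, oligodendrocyte precursor-like and gliogenic cells lie near or above the band, and MEIS2 and DLX cells lie far beneath it at 105 and 283 CPM.

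Some ERBB4 differences among glial classes changed when cells with a UMI of these inhibitory genes were left out. ERBB4 was called higher in gliogenic progenitors than in HOPX glia by 2.38 (SE 0.49, edgeR adjusted p = 0.000158), but the log2 difference was 4.07 from library A by itself and 0.66 from library B by itself. Without cells that carried GAD1, GAD2, DLX5 or DLX6 it was 1.19 (edgeR adjusted p = 0.0508). Against oligodendrocyte precursor-like cells the gliogenic value was -0.27 with all cells (SE 0.44, edgeR adjusted p = 0.794) and -1.75 without those cells (adjusted p = 0.00114). ERBB4 was also called higher in gliogenic progenitors than in non-dividing EOMES progenitors (2.74, SE 0.45, edgeR adjusted p = 4.43e-06) and in precursor-like cells than in HOPX glia (2.65, SE 0.49, edgeR adjusted p = 3.30e-05). Both differences are with all cells, where the HOPX glia had 45.5 CPM in library A and 262 in library B. Without cells carrying those genes, gliogenic progenitors had 88.4 and 250 CPM and non-dividing EOMES progenitors 39.7 and 84.6. Precursor-like cells then had 532 and 426 CPM and HOPX glia 42.2 and 102.

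NRG1, the ligand of ERBB3 and ERBB4, was highest in non-dividing HOPX glia and lowest in oligodendrocyte precursor-like cells. HOPX glia had 295 CPM (441 UMIs) in library A and 226 CPM (153 UMIs) in library B. Non-dividing EOMES progenitors followed with 223 and 203 CPM, beneath both HOPX values. LIFR glia (145 and 169 CPM), dividing EOMES progenitors (155 and 145), mural and fibroblast-like cells (140 and 155) and dividing HOPX cells (138 and 128) formed the next group. Oligodendrocyte precursor-like cells (21.1 and 11.7 CPM), ADARB2 interneurons (25.2 and 17.1) and gliogenic progenitors (48.7 and 32.7) closed the order, all under the microglia-like level of 58.9 and 56.9. The order was better resolved than that of any other member, with 7 of 14 neighbouring pairs separate in both libraries.

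NRG1 was lower in gliogenic progenitors than in HOPX glia by a log2 difference of -2.69 (SE 0.21, edgeR adjusted p = 4.81e-14), and lower than in non-dividing EOMES progenitors by -2.41 (SE 0.21, edgeR adjusted p = 7.30e-13). In oligodendrocyte precursor-like cells the difference from HOPX glia was -3.96 (SE 0.28, edgeR adjusted p = 9.17e-16), from 12 UMIs in all. Dividing HOPX cells were lower than non-dividing ones by -1.09 (SE 0.14, edgeR adjusted p = 1.58e-08). NRG1 was higher in non-dividing EOMES progenitors than in the excitatory neurons (70.2 and 65.7 CPM) by 1.59 (SE 0.12, edgeR adjusted p = 2.41e-15), and the shares of cells with NRG1 in thinned cells were 25.5% and 22.7% against 8.35% and 10.3%.

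The interneuron contrasts of NRG1 were small. LHX6 or NXPH1 interneurons (44.6 and 49.3 CPM, 61 UMIs in all) were lower than the excitatory neurons by -0.71 (SE 0.20, edgeR adjusted p = 0.00799), but with stricter gates the difference was 0.0040 and not called. Against ADARB2 interneurons they were higher by 0.96 (SE 0.29, edgeR adjusted p = 0.0272), a call lost under 3 alternatives, with adjusted p-values from 0.0543 to 0.264.

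NRG3, a ligand of ERBB4, was also highest in non-dividing HOPX glia, but unlike NRG1 its CPM was high in some neuron classes as well. HOPX glia had 785 CPM (1174 UMIs) and 772 CPM (522 UMIs), above both libraries of the next class. The cells gated by TBR1, FEZF2, TLE4 and FOXP2 had 683 and 483 CPM, the excitatory neurons 557 and 490, LIFR glia 552 and 381, and LHX6 or NXPH1 interneurons 520 and 368, with overlapping ranges. Dividing EOMES progenitors (49.3 and 117 CPM), non-dividing EOMES progenitors (114 and 73.8), MEIS2 and DLX cells (73.8 and 124) and gliogenic progenitors (118 and 83.6) were lowest. After thinning, NRG3 was read in 60.5% and 58.2% of HOPX glia and in 22.0% and 35.9% of microglia-like cells, whose whole level was 146 and 233 CPM. The excitatory neurons, at 33.2% and 32.8%, lay above the microglia-like share in library A and under it in library B. Only 2 of 14 other classes exceeded both microglia-like NRG3 shares, HOPX glia and the cells gated by TBR1, FEZF2, TLE4 and FOXP2. No interneuron class did. The microglia-like level is no even floor for NRG3 either, since gliogenic progenitors lay under it in both libraries.

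NRG1 and NRG3 differed in opposite directions between non-dividing EOMES progenitors and the excitatory neurons. NRG3 was lower in non-dividing EOMES progenitors than in the excitatory neurons by -2.48 (SE 0.20, edgeR adjusted p = 3.44e-14), where NRG1 was higher. The TBR1, FEZF2, TLE4 and FOXP2 cells differed from the other excitatory neurons by 0.08 in NRG3 (SE 0.19, edgeR adjusted p = 0.914). Among glia, NRG3 was lower in gliogenic progenitors than in HOPX glia by -2.96 (SE 0.27, edgeR adjusted p = 4.92e-12), lower in oligodendrocyte precursor-like cells by -1.82 (SE 0.25, edgeR adjusted p = 1.19e-07) and lower in dividing HOPX cells by -0.89 (SE 0.19, edgeR adjusted p = 0.000327). The last of these was not called by DESeq2 (adjusted p = 0.121). Gliogenic progenitors were also lower than precursor-like cells (-1.13, SE 0.36, edgeR adjusted p = 0.0288).

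Classes gated by DLX and GAD genes differed in NRG3. LHX6 or NXPH1 interneurons had more NRG3 than ADARB2 interneurons (226 and 171 CPM) by 1.16 on the log2 scale (SE 0.23, edgeR adjusted p = 0.000237), which DESeq2 did not call (adjusted p = 0.0687). MEIS2 and DLX cells had less than LHX6 or NXPH1 interneurons by -2.40 (SE 0.31, edgeR adjusted p = 2.95e-08).

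NRG2, a further ligand of ERBB3 and ERBB4, was sparse, with 290 UMIs in all. LHX6 or NXPH1 interneurons had 19 and 5 UMIs (17.7 and 19.0 CPM), oligodendrocyte precursor-like cells 6 and 3 (12.6 and 17.6 CPM), and gliogenic progenitors 5 and 3 (8.40 and 10.9 CPM). NRG2 was called higher in LHX6 or NXPH1 interneurons than in the excitatory neurons (1.52, SE 0.48, edgeR adjusted p = 0.0178), and this call was lost when cells of several gates went to the class with most markers (1.35, adjusted p = 0.0727). It was also called higher in oligodendrocyte precursor-like cells than in HOPX glia (2.73, SE 0.93, edgeR adjusted p = 0.0234), on 9 UMIs against 4.

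Receptors and ligands were set side by side in the same 10 comparisons. Of 60 tests on the 6 members that passed the filter on low counts, 33 were called, 18 higher and 15 lower in the first class, and all 33 had the same sign in both libraries. EGFR was called in 9 of 10 comparisons, each time higher in the first class, and ERBB4 in 5. NRG1 was called in 7 comparisons (2 higher and 5 lower) and NRG3 in 7 (1 higher and 6 lower). Over all genes tested, the share called ran from 4.66% to 25.6% across the 10 comparisons. Which class came first was a choice, so the split into higher and lower depends on that order. Several comparisons share a class, so these counts are not independent of each other.

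**Figure D5:**
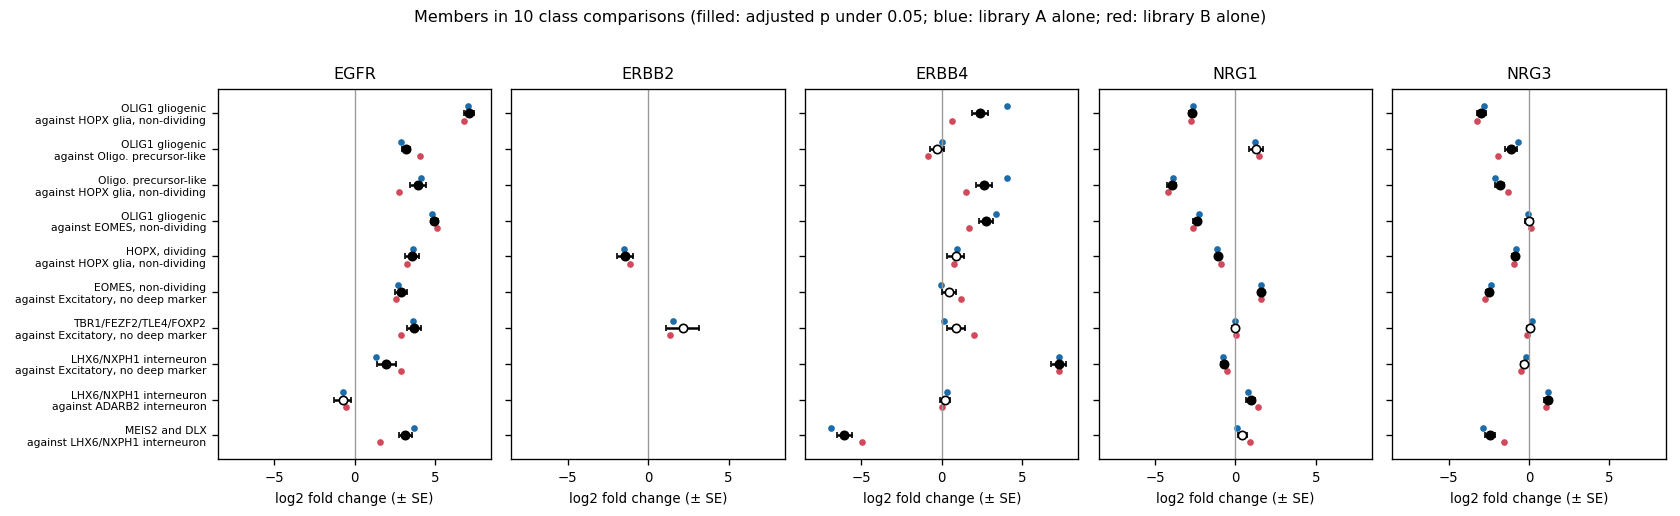
Log2 fold change with its standard error (black, filled where the edgeR adjusted p is under 0.05) for 5 members in 10 class comparisons, with library A (blue) and library B (red) alone; ERBB2 is drawn only where both classes hold more than 3 UMIs. EGFR lies right of 0 in 9 called comparisons, reaching 7.14, while NRG1 and NRG3 lie left of 0 in the 3 comparisons of gliogenic, precursor-like and dividing HOPX cells with HOPX glia.

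In gliogenic progenitors against HOPX glia, 5 of 6 members were called (25.2% of all genes tested were called in this comparison): EGFR and ERBB4 higher, and ERBB2, NRG1 and NRG3 lower (over all genes 11.9% were higher and 13.3% lower). Oligodendrocyte precursor-like cells against HOPX glia had 6 of 6 called (background 25.6%), with EGFR, ERBB4 and NRG2 higher and ERBB2, NRG1 and NRG3 lower. Dividing against non-dividing HOPX cells had 4 of 6 called (background 20.2%), with EGFR higher and the other three lower. In each of these comparisons NRG1 and NRG3 were lower and EGFR was higher in the class set against HOPX glia. HOPX glia are shared by the 3 comparisons, so they are not separate observations of the HOPX side.

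Gliogenic progenitors differed from oligodendrocyte precursor-like cells in 2 of 6 members (background 12.5%), EGFR and NRG3, and from non-dividing EOMES progenitors in 3 of 6 (background 23.7%), EGFR, ERBB4 and NRG1. Non-dividing EOMES progenitors differed from the excitatory neurons in 3 of 6 (background 24.5%), EGFR, NRG1 and NRG3. The TBR1, FEZF2, TLE4 and FOXP2 cells differed from them in 1 of 6 (background 4.66%), EGFR. LHX6 or NXPH1 interneurons differed from the excitatory neurons in 4 of 6 (background 19.7%), EGFR, ERBB4, NRG1 and NRG2, and from ADARB2 interneurons in 2 of 6 (background 8.55%), both of them ligands. MEIS2 and DLX cells differed from LHX6 or NXPH1 interneurons in 3 of 6 (background 22.1%), EGFR, ERBB4 and NRG3.

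Other ligands of the EGF family were mostly near the detection limit. EGF, TGFA, EREG and EPGN, ligands of EGFR, reached at most 4.26 CPM in any single library of their highest class, NRG4 had no UMI, and 3 of the 9 listed ligands were tested. BTC, the betacellulin ligand of EGFR and ERBB4, was highest in HOPX glia (20.1 and 29.6 CPM) and lower in gliogenic progenitors by -2.36 (SE 0.77, edgeR adjusted p = 0.0185). CSPG5, a membrane proteoglycan with an EGF-like domain that can bind ERBB3, was highest in oligodendrocyte precursor-like cells (299 and 317 CPM). It was lower in gliogenic progenitors than in those cells by -1.90 (SE 0.24, edgeR adjusted p = 3.12e-08) and higher than in non-dividing EOMES progenitors by 3.08 (SE 0.32, edgeR adjusted p = 1.42e-10).

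Of 8 genes for proteases and ligand maturation, 7 were tested. In gliogenic progenitors against HOPX glia 1 was higher and 0 lower (over all genes 11.9% were higher and 13.3% lower), with a list median of -0.37 against -0.01 over all genes. BACE1, a protease that cleaves neuregulin precursors, was highest in oligodendrocyte precursor-like cells (48.4 and 47.0 CPM), where it was higher than in HOPX glia by 1.53 (SE 0.37, edgeR adjusted p = 0.00102), while gliogenic progenitors lay under the precursor-like cells by -2.51 (SE 0.51, edgeR adjusted p = 0.000325). ADAM10 and ADAM17, proteases that release EGF family ligands, were called in none of the 3 comparisons among gliogenic, precursor-like and HOPX cells.

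Among 8 inhibitors of the receptors, 0 were higher and 3 lower in gliogenic progenitors than in HOPX glia (over all genes 11.9% were higher and 13.3% lower), with a median of -0.70 against -0.01 over all genes. LRIG1, a membrane protein that promotes degradation of ERBB receptors, was highest in HOPX glia (258 and 216 CPM). It was lower in gliogenic progenitors by -1.48 (SE 0.20, edgeR adjusted p = 7.49e-08) and in oligodendrocyte precursor-like cells by -4.40 (SE 0.35, edgeR adjusted p = 2.00e-14), and higher in gliogenic progenitors than in the precursor-like cells by 2.92 (SE 0.46, edgeR adjusted p = 5.40e-06). LRIG1 was thus lowest of the 3 in the precursor-like cells, while EGFR was lowest in HOPX glia. LRIG3 was also lower in gliogenic progenitors than in HOPX glia (-1.33, SE 0.46, edgeR adjusted p = 0.0290).

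All 20 listed adaptors and downstream kinases were tested, and in gliogenic progenitors against HOPX glia 3 were higher and 4 lower, with a median of -0.07 against -0.01 over all genes. These counts are near the shares over all genes (11.9% higher and 13.3% lower) and are no result about the list. Among its single genes, GAB2, a docking adaptor, and PIK3R1, the regulatory subunit of PI3-kinase, were higher by 2.74 (SE 0.47, edgeR adjusted p = 8.25e-06) and 1.85 (SE 0.36, edgeR adjusted p = 8.10e-05). Both were also higher in oligodendrocyte precursor-like cells than in HOPX glia, by 3.54 (SE 0.43) and 3.41 (SE 0.30). In LHX6 or NXPH1 interneurons against the excitatory neurons 3 of 20 were higher and 4 lower (over all genes 9.07% and 10.6%), and PIK3R1 was lower by -3.13 (SE 0.29, edgeR adjusted p = 2.02e-12).

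Genes with class profiles most like those of the members were ranked by Pearson correlation of log2(CPM + 1) class means over 15 classes, among 11049 genes that reached 20 CPM in a class. For EGFR they included ARHGAP10 (r = 0.80), IGFBP5 (0.80), TMEM186 (0.79) and ZEB1 (0.77). ERBB4 was nearest to CXCR4 (0.93), GRIK2 (0.91), ZNF536 (0.89), DLGAP2 (0.89) and BRINP3 (0.89), genes that were highest in one of the 2 interneuron classes. For ERBB3 the nearest genes included GPR17 (0.96), which was a gate marker of the precursor-like class, and MYRF (0.94). NRG1 was nearest to LOC101679841 (0.95), RAI14 (0.93), PRDM16 (0.91), ECI1 (0.90) and ZFHX4 (0.88), and NRG3 to ATXN1 (0.88), SH3RF3 (0.87), CRY2 (0.86), LOC101673790 (0.86) and NTRK2 (0.82). ERBB2 was nearest to RASGRP2 (0.94), EVA1A (0.93) and GABRB1 (0.92), and NRG2 did not reach the minimum.

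Between members, the class means of ERBB4 and NRG1 gave r = -0.66 over the 15 classes, ERBB2 and NRG3 gave 0.64, and NRG1 and NRG3 gave 0.15. These are descriptions of 15 class means that share libraries, depth and free RNA.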

How the data were processed

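Single-cell RNA-seq of the dorsal cortex was measured in 2 libraries of 1 group. The authors deposited UMI counts per gene and cell, not normalized; Cell Ranger is named in the submitters' processing notes without a version, and no source used here gives the genome build. The matrix holds no cell under 1501 UMIs. Here, cells with over 10% mitochondrial UMIs or under 500 genes were removed (14 cells, leaving 14773). Scrublet called 0 and 1 cells as doublets (0.0200% of library B), so its calls were not used, and cells meeting 2 or more gates were left out. Depth was 41836475 UMIs in library A and 18907140 in library B.

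Each of 18 classes was gated by marker genes, and 15 with at least 20 cells in each library were described. CPM is the UMI count of a gene per 1000000 UMIs of the class in that library. Shares of cells were also taken with every cell thinned to 1500 UMIs. Counts summed per class and library (30 sums) were fitted with edgeR 4.0.16 (TMM, filter on low counts, library as a block, 14 residual degrees of freedom, threshold 0.05 after Benjamini-Hochberg adjustment), with all classes sharing the estimate of the spread. Blocking by library follows from the design, since all classes of a library come from the same tissue. Python 3.11.15, scanpy 1.11.5, R 4.3.3 and DESeq2 1.42.0 were used. The fit was tested on simulated data with 1 common spread for all genes and no library effect, so it does not cover genes that vary more. It recovered 71% of changes of 1 on the log2 scale and 92% of changes of 2. False calls were 6.32% of all calls, above the threshold of 0.05. Intervals cover counting error only, and floors (3 counts) only that of the class without a UMI.

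The members, gates and gene lists were chosen with earlier results of these data known. Named were the 7 members, the called genes of each list with an absolute log2 fold change of at least 1 (up to 5 per comparison, of which the text gives a selection), and the 5 genes with the class profile most like each member. Some genes that these rules, the gates or the lists include are not reported here by name, and they remain in the counts and fits. ADAM10 and ADAM17 were named outside that rule after their values were seen. Alternatives were stricter gates, thinned cells, cells of several gates placed by most markers, Scrublet scores over 0.2 removed, a mitochondrial limit of 5%, no filter on low counts, DESeq2, the 2 compared classes alone, no block, and each library alone; leaving out cells with interneuron RNA and asking NEUROD2 or NEUROD6 of the TBR1, FEZF2, TLE4 and FOXP2 cells were chosen after seeing the data.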

Additional observations from a re-analysis of the deposited data

Results flagged for a closer look

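Cells that met no gate enter none of the comparisons, yet they held UMIs of every member. EGFR had 1584 UMIs there, 31.7% of its total, and 128 of the 365 cells with at least 5 EGFR UMIs were among them. ERBB4 had 8856 UMIs, NRG3 7118 and NRG1 2115. The scarce members had 108 UMIs (NRG2), 57 (ERBB2) and 6 (ERBB3). A count of 0 would allow 3. Cells that met several gates held a further 23.6% of EGFR UMIs, with 85 cells at 5 UMIs or more, so the EGFR values of the gliogenic class describe 17.8% of the EGFR molecules of the data set.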

How the results depend on the processing

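Over 597 tests of members under 11 alternatives, 568 kept their side of the threshold, 14 lost the call, 14 gained it and 1 reversed. The reversed test was NRG1 in LHX6 or NXPH1 interneurons against the excitatory neurons, at 0.0040 with stricter gates. A change of sign was counted as a reversal only where the difference was called in either setting. The 568 can therefore include uncalled differences that changed sign. ERBB2 and NRG2 gave no value with stricter gates or thinned cells, and NRG2 none without high doublet scores, since they fell under the filter there; with the 2 compared classes alone they were tested in 3 and 4 comparisons. EGFR in gliogenic progenitors moved by more than the small gap between the libraries, to 1105 CPM with stricter gates, 944 with thinned cells, 1034 with cells of several gates placed by most markers, 1048 without high doublet scores, 1013 with the 5% mitochondrial limit and 1053 without cells carrying interneuron RNA. ERBB2 in HOPX glia was 22.9 CPM thinned and 18.8 with several-gate cells placed. NRG2 in LHX6 or NXPH1 interneurons was 17.0 with stricter gates, 12.5 thinned and 15.6 with several-gate cells placed. NRG3 in HOPX glia was 819 with stricter gates and 793 with several-gate cells placed.

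With thinned cells, which hold fewer UMIs, the numbers of genes called fell to 1363 (gliogenic against HOPX), 556 (gliogenic against precursor-like), 1355 (precursor-like against HOPX), 1269 (gliogenic against EOMES), 1050 (dividing against non-dividing HOPX), 1603 (EOMES against excitatory), 345 (TBR1, FEZF2, TLE4 and FOXP2 against excitatory), 1520 (LHX6 or NXPH1 against excitatory) and 1365 (MEIS2 and DLX against LHX6 or NXPH1), from 2926, 1448, 2973, 2754, 2345, 2853, 542, 2289 and 2572. Stricter gates gave 1935 for precursor-like against HOPX and 1268 for TBR1, FEZF2, TLE4 and FOXP2 cells. For the latter, no filter gave 830 and the NEUROD2 or NEUROD6 requirement 47. With stricter gates the precursor-like class held 30 and 10 cells in libraries A and B, and the TBR1, FEZF2, TLE4 and FOXP2 class 17 and 6. The non-dividing EOMES gate has no list to take a further marker from and stayed as it was. Its class still rose from 924 to 979 cells in library A, so stricter classes are not plain subsets of the main ones. The cause of the changes in genes called was not tested. Without the replicate block no call on a member changed (60 of 60), and gliogenic progenitors against HOPX glia had 2756 genes called. Of the 14 gained calls, 10 were of ERBB4. Depth limits ERBB2, ERBB3 and NRG2, with 256, 45 and 290 UMIs in all.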
